A study of Danio rerio with 6 samples.

Results

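Genes of the Rab, SNARE and vesicle trafficking families were examined in zebrafish embryos that carry Tg(HSP:EWS-FLI1), a heat-inducible construct for the human Ewing sarcoma fusion EWS-FLI1, and in wild-type AB embryos as controls. Members were picked out by a rule on gene symbols, which was set with earlier results of these data known. A probe set was a member when the platform annotation gave it a single gene whose symbol begins with rab, vamp, snap, stx, syt, vps or arf and a digit, with stxbp or unc13, or with copa, copb, copg, cope or copz. This rule took 120 of 15502 tested probe sets, which stand for 96 of 8793 genes. Each group had 3 arrays, and each array read RNA from a pool of 40 whole embryos. At 50% epiboly, early in gastrulation, embryos of both genotypes received 30 min at 39 °C, and RNA was collected after 2 h at 28.5 °C. A heat shock promoter is active in most cells, so the design does not single out a tissue, and in RNA from whole embryos fewer cells of a type and less RNA per cell cannot be told apart. The labels call the arrays biological replicates without naming the clutches, so p-values measure the spread between these pools.

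Membrane traffic moves proteins between compartments in vesicles. Arf GTPases recruit the COPI coat, which buds vesicles at the Golgi, while Rab GTPases mark each compartment and recruit tethers and motors. At the target membrane, Unc13 proteins prime vesicles, and syntaxin-binding proteins of the Sec1/Munc18 family hold syntaxins ready. VAMP, SNAP and syntaxin proteins zip together as SNAREs, and some synaptotagmins time fusion by sensing calcium. Vps proteins, first found in yeast vacuole sorting, form the ESCRT, retromer, HOPS, CORVET and GARP complexes of the endosome and lysosome.

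All values are log2 RMA values, on which a difference of 1 is a 2-fold change, and all differences are EWS-FLI1 minus control. A probe set was called when limma, fitted over all probe sets, gave a Benjamini-Hochberg adjusted p under 0.05. Values at or under 4.23, the 95th percentile of 44 bacterial and tag control probe sets, are termed within background. Where a gene has several probe sets, a number in brackets after its symbol tells them apart. Correlations between arrays were 0.998 within EWS-FLI1, 0.991 to 0.994 within controls and 0.982 to 0.988 between groups. The GAPDH control probe sets read 3' minus 5' differences of 1.1, 1.28 and 1.25 on the EWS-FLI1 arrays and 0.87, 0.69 and 0.92 on the control arrays, a measure of RNA integrity whose part in the members' values was not tested. Of 15 gastrula genes listed as a check of the tissue, all were measured and 14 were above background. Of these gastrula genes 1 was called higher and 6 lower, and their mean level was 7.20 to 7.37 in EWS-FLI1 and 7.53 to 7.84 in control embryos. By probe set 42.1% of the gastrula list were called, against 11.8% of all probe sets. Groups did not overlap at 68.4% of the list, against 29% of all. Of 8 measured genes of the yolk syncytial layer 1 was called higher and 0 lower, with 11.1% of its probe sets called. Mean levels of this list were 7.44 to 7.52 in EWS-FLI1 and 7.23 to 7.41 in control embryos. The gene called higher, slc40a1, averaged 6.39 in EWS-FLI1 and 3.70 in control embryos, the latter within background. The median difference over the probe sets of this list was -0.09, below 0. The part of these lists in the members' values was not tested.

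Most member probe sets had no call and a few differed widely, while 33 of the 120 were within background in both groups. Of the 120 member probe sets 13 were called (10.8%), against 11.8% of all probe sets tested. The members called higher numbered 8 (6.67%), against 5.38% of all probe sets, and those called lower numbered 5 (4.17%), against 6.46%. Counted by gene, 7 rose (unc13d, vamp5, syt9a, rab3c, rab13, rab20 and rab40c), 5 fell (copb2, copz2, rab36, stx3b and stx11a) on at least 1 probe set, and 84 had no call. These shares lie near those of all probe sets, so the count of calls over all members does not set them apart. Among probe sets with a group mean above background, 12.6% of 87 members were called, against 16.5% of 9726 probe sets. Of these 87 members 8 were higher and 3 lower, against 713 and 889 of the 9726. Members that were called with a fitted difference of at least 1 numbered 5 (4.17%), against 2.21% of all probe sets: unc13d, vamp5, syt9a and rab3c were higher and copb2 was lower. For syt9a this rests on a control level within background, and its bound given with its values is under 2-fold. For copb2 it rests on 1 of 3 probe sets (limma adjusted p = 0.0495), and the others differed by 0.29 and 0.06 without a call. As the rule was set with earlier results known, the share of 4.17% is descriptive only.

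**Figure D1:**
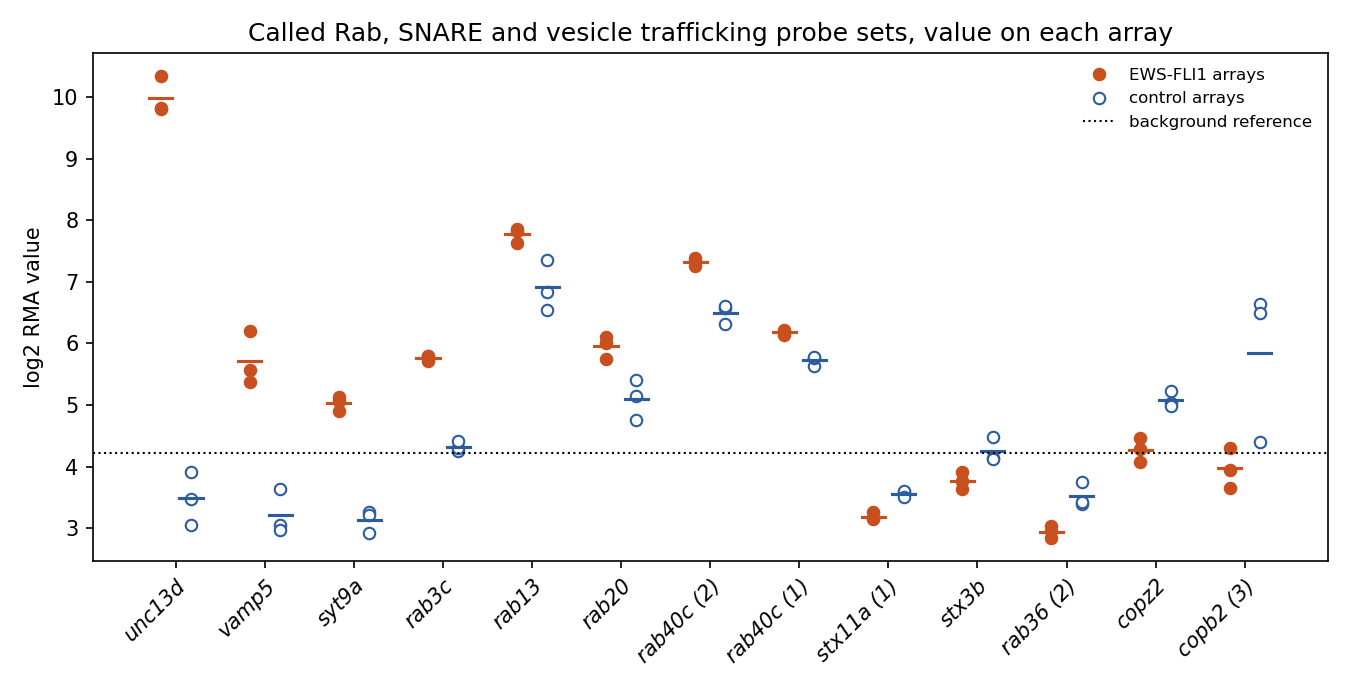
Log2 RMA value (vertical axis) of the 13 called member probe sets on each array, with 3 EWS-FLI1 arrays (filled) left of 3 control arrays (open). Short lines are group means, the dotted line is the background reference of 4.23, and numbers in brackets tell apart probe sets of a gene. The groups do not overlap at any of the 13. For unc13d the EWS-FLI1 arrays lie between 9.80 and 10.34 and the control arrays under the dotted line, while for copb2 (3) control replicate 2 lies near the EWS-FLI1 arrays.

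The median difference of the members was 0.02 and the median size of a difference was 0.12, against 0.00 and 0.12 over all probe sets. Groups did not overlap at 41 of the 120 members (34.2%), 21 of them higher and 20 lower in EWS-FLI1, against 29% of all probe sets. The 107 members without a call differed by -0.42 to 0.37. For 93 of them (86.9%) the unadjusted 95% interval of the difference lay within 0.5 of 0 on either side, against 81.9% of all probe sets without a call. Among those with a group mean above background this held for 64 of 76 members (84.2%), against 77.4% of all such probe sets. Both group means were within background at 33 members (27.5%) and at 37.3% of all probe sets. Of these 33 members 2 were called lower, a probe set each for rab36 and stx11a. Over all probe sets, 233 of the 5776 within background in both groups were called in either direction.

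**Figure D2:**
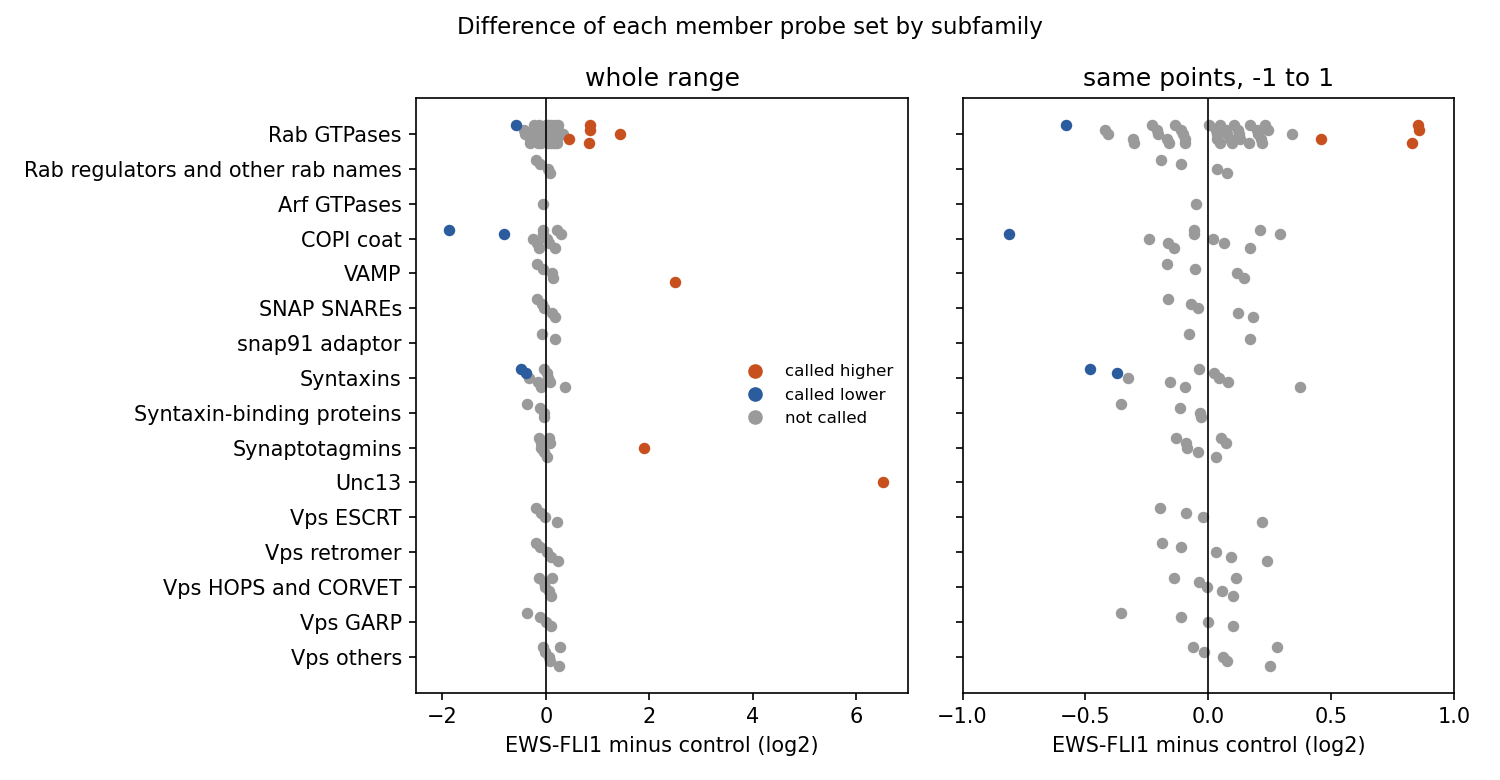
EWS-FLI1 minus control difference (log2, horizontal axis) of each of the 120 member probe sets, 1 row per subfamily, over the whole range (left) and between -1 and 1 (right). Orange points were called higher, blue points lower and grey points had no call. The unc13d point at 6.51 stands far right of all others, and no Vps, SNAP or syntaxin-binding point is coloured.

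Among the genes that act at fusion, a priming factor, a VAMP and a synaptotagmin rose in EWS-FLI1 embryos. The largest difference among the members was that of unc13d, known in human as Munc13-4, which primes secretory granules of cytotoxic lymphocytes and platelets. Its values were 10.34, 9.80 and 9.83 in EWS-FLI1 embryos, against 3.05, 3.92 and 3.48 in control embryos. Every EWS-FLI1 array was bright and every control array was within background. The means were 9.99 ± 0.30 and 3.48 ± 0.44 (SD, n = 3 each), and the difference was 6.51 (SE 0.22, limma adjusted p = 1e-06). Because the control level was not above background, the change is better given as a bound. With the EWS-FLI1 mean set against the background reference, it was at least 54.2-fold.

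In human, loss of UNC13D, STX11 or STXBP2 causes the same immune disease, familial hemophagocytic lymphohistiocytosis, since their products serve the same granule exocytosis. None of the zebrafish partners on the array was called higher. The Munc18-2 gene stxbp2 had values averaging 6.04 ± 0.02 in EWS-FLI1 and 6.40 ± 0.16 in control embryos (SD, n = 3 each). The difference of -0.36 (limma adjusted p = 0.052) was just outside the threshold. It was called lower without control replicate 2 (limma adjusted p = 0.0496) or replicate 3 (limma adjusted p = 0.0328). Without any other single array it had no call, with limma adjusted p of up to 0.171. The vesicle SNARE gene vamp8 differed by -0.17 (limma adjusted p = 0.322), and snap23.1, which encodes a plasma membrane SNARE, by -0.04 (limma adjusted p = 0.901). Of the 2 probe sets for stx11a, the syntaxin of this pathway, 1 was called lower and is described with the syntaxins. For 11 measured leukocyte marker genes 0 probe sets were called, against 11.8% of all probe sets. Of these genes 3 were above background, and the mean level of the list was 3.81 to 3.87 in EWS-FLI1 and 3.74 to 3.87 in control embryos. The 3 above background were lcp1, which averaged 9.97 ± 0.02 in EWS-FLI1 and 9.42 ± 0.67 in control embryos (SD, n = 3 each; limma adjusted p = 0.266), cebpa (9.50 and 9.58), and mpx on 1 of 4 probe sets (4.64 and 4.70). The 8 other genes, among them spi1b, coro1a, lyz and ptprc, were within background in both groups. The part of the list in the rise of unc13d was not tested. The 3 measured pigment cell genes were within background as well, with mean levels of 3.25 to 3.42 in EWS-FLI1 and 3.24 to 3.49 in control embryos.

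The vesicle SNARE gene vamp5, known in mammals from muscle and the plasma membrane, had values of 6.20, 5.38 and 5.57 in EWS-FLI1 embryos and 3.05, 3.64 and 2.97 in control embryos. All EWS-FLI1 arrays were above background and all control arrays were within it. The difference was 2.50 (SE 0.24, limma adjusted p = 0.000365). With the EWS-FLI1 mean set against the background reference, the change had a bound of at least 2.81-fold.

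The synaptotagmin gene syt9a encodes a calcium sensor of secretory vesicles. It had values of 5.06, 4.90 and 5.13 in EWS-FLI1 embryos and 2.92, 3.27 and 3.22 in control embryos. Again the control arrays were all within background, and the EWS-FLI1 arrays differed little among themselves. The difference was 1.89 (SE 0.12, limma adjusted p = 3.37e-05), with a bound of at least 1.74-fold against the background reference. None of the other 7 synaptotagmin probe sets, for syt1a, syt4, syt5a, syt11a and syt13, was called. All 7 were within background in both groups, and they differed by -0.13 to 0.07.

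The remaining VAMP genes showed no call. They were vamp3, a vesicle SNARE of recycling endosomes (0.12, limma adjusted p = 0.521), vamp4, which serves the trans-Golgi (0.14, limma adjusted p = 0.403), and the neuronal vamp1a (-0.05), beside vamp8. The SNAP genes, which supply further coils of the SNARE bundle, had 5 probe sets with differences of -0.16 to 0.18 and 0 calls. The 2 probe sets for snap29, a SNARE of autophagosomes, lay on opposite sides of 0 at 0.18 and -0.16. The neuronal exocytosis genes snap25a, snap25b, vamp1a and syt1a were within background in both groups, with differences of -0.09 to 0.12. A list of 11 measured neuronal genes, which shares snap25a, snap25b and syt1a with the members, had a mean level of 3.71 to 3.78 in EWS-FLI1 and 3.83 to 3.97 in control embryos. Of the 11 genes 4 were above background, with 1 called higher and 2 lower. By probe set 23.5% of this list were called, against 11.8% of all probe sets. The gene called higher, neurod1 (3.39 and 2.64), was within background in both groups. Those called lower were isl1a, with a called probe set above and another within background, and elavl3, whose other probe sets had no call. The 2 probe sets for snap91b, which matches the symbol rule but encodes a clathrin adaptor and not a SNARE, differed by -0.08 and 0.17 without a call.

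Syntaxins, the SNAREs of target membranes, held 10 probe sets for 7 genes. Of these probe sets 2 were called lower and 0 higher (20% called, against 11.8% of all probe sets). The apical membrane syntaxin stx3b had values of 3.76, 3.92 and 3.63 in EWS-FLI1 embryos and 4.48, 4.14 and 4.13 in control embryos. The groups did not overlap, and only control replicate 1 was above background. The difference was -0.48 (SE 0.12, limma adjusted p = 0.0376). The called probe set, stx11a (1), averaged 3.19 ± 0.06 in EWS-FLI1 and 3.56 ± 0.06 in control embryos (SD, n = 3 each), a difference of -0.37 (limma adjusted p = 0.021). All of its values were within background, and the other stx11a probe set differed by -0.10 (limma adjusted p = 0.6). For both genes the call was lost when any single EWS-FLI1 array or control replicate 1 was left out, with limma adjusted p of up to 0.155 for stx3b and 0.0964 for stx11a.

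Of the other syntaxins, stx8, a SNARE of late endosomes, had values averaging 5.21 ± 0.10 in EWS-FLI1 and 4.83 ± 0.16 in control embryos (SD, n = 3 each). Its difference of 0.37 just missed the threshold (limma adjusted p = 0.0585), which it passed without control replicate 2 (limma adjusted p = 0.0336). Without any other single array it had no call, with limma adjusted p of up to 0.213. The plasma membrane syntaxin stx4 differed by 0.08, and the 2 probe sets for stx5al, a Golgi syntaxin gene, by 0.04 and 0.02. The endosomal stx6 (-0.33 and -0.04) and stx2a (-0.16) were within background in both groups. The stx6 probe set at -0.33 had no call (limma adjusted p = 0.0606). Of the fits without single arrays, only that without control replicate 2 called it lower (-0.41, limma adjusted p = 0.0177). The 4 syntaxin-binding genes had no call, and all 4 differences were below 0: stxbp2 at -0.36, stxbp3 at -0.12, and stxbp5a and stxbp6l, both within background, at -0.03 each.

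**Figure D3:**
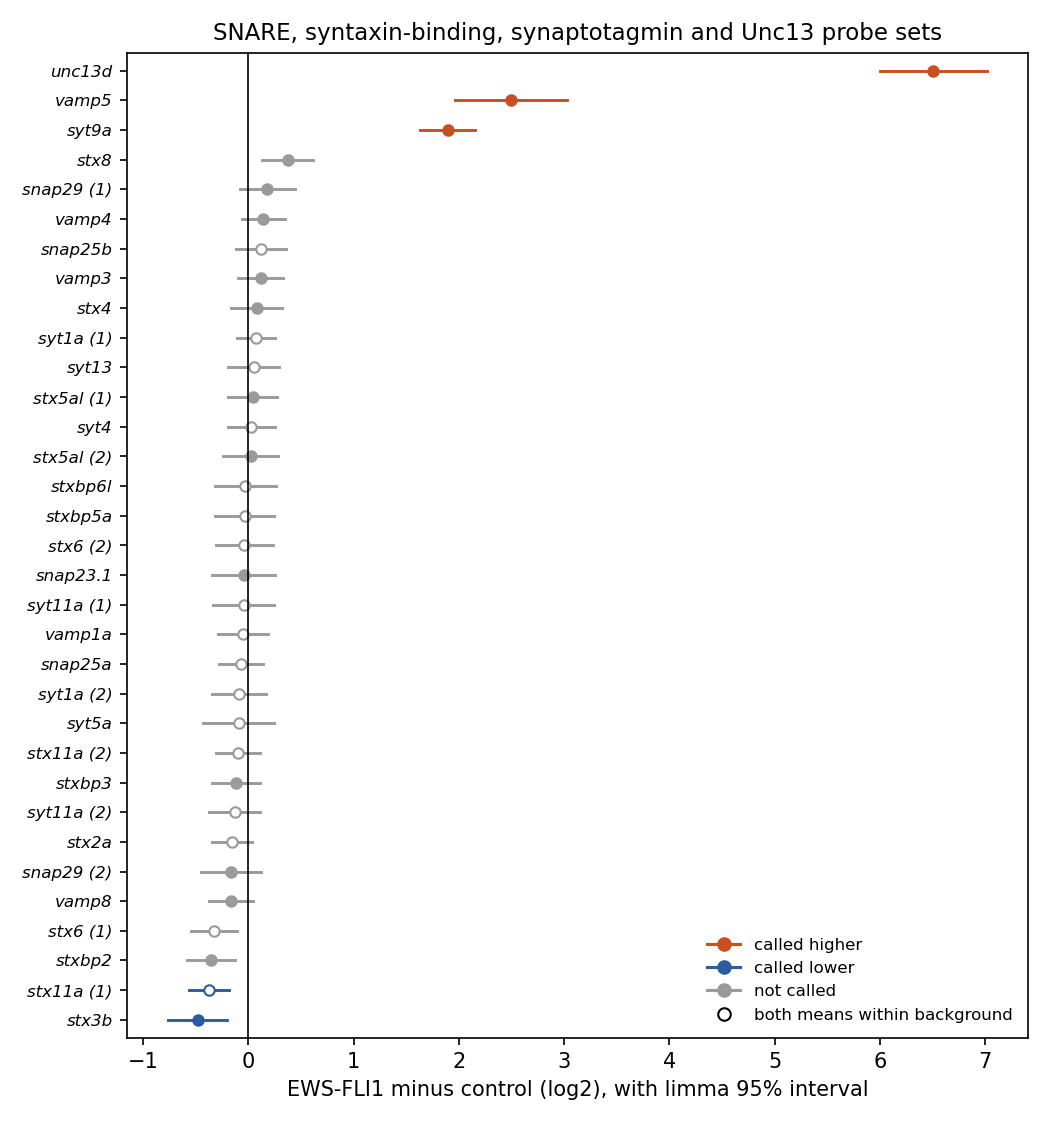
EWS-FLI1 minus control difference (log2, horizontal axis) with its unadjusted limma 95% interval for each SNARE, syntaxin-binding, synaptotagmin and Unc13 probe set. Open points had both means within background, and colours mark calls. The points for unc13d (6.51), vamp5 (2.50) and syt9a (1.89) lie apart from the rest, the called syntaxins stx3b and stx11a lie at -0.48 and -0.37, and most other intervals span 0.

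Rab GTPases formed the largest subfamily, with 43 probe sets for 36 genes. On the called probe sets, rab3c, rab13, rab20 and both probe sets for rab40c rose and 1 of 2 probe sets for rab36 fell. The share of Rab probe sets called was 14%, against 11.8% of all probe sets. The median difference was 0.07, against 0.00 over all probe sets. Of the 43 differences 28 were above 0, against 7769 of 15502 over all probe sets. The 37 Rab probe sets without a call differed by -0.42 to 0.34.

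The gene rab3c belongs to the Rab3 group, which acts on secretory vesicles in neurons and endocrine cells. Its values were 5.80, 5.71 and 5.79 in EWS-FLI1 embryos, against 4.25, 4.30 and 4.42 in control embryos. The groups lay far apart compared with the spread inside each, and the control arrays were only just above background. The difference was 1.44 (SE 0.09, limma adjusted p = 2.88e-05). Other members named after Rab3 had no call. They were rab3gap1 (-0.19) and rab3gap2 (0.08), which encode the subunits of the Rab3 GTPase activating complex, and rab3ip (-0.11). The latter encodes a protein known as Rabin8. The brightest member with a rab name outside the Rab GTPases, rab5if, differed by 0.04 (limma adjusted p = 0.853).

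Both rab40c probe sets rose. This gene encodes a Rab with a SOCS box that joins ubiquitin ligases. At rab40c (2) the values were 7.25, 7.39 and 7.34 in EWS-FLI1 embryos and 6.57, 6.60 and 6.32 in control embryos, a difference of 0.83 (SE 0.10, limma adjusted p = 0.00144). At rab40c (1) they were 6.19, 6.22 and 6.14 in EWS-FLI1 embryos and 5.64, 5.76 and 5.78 in control embryos, a difference of 0.46 (SE 0.08, limma adjusted p = 0.00916). All 12 values were above background, and neither probe set showed an overlap between groups.

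The epithelial Rab gene rab13, whose mammalian product serves tight junctions, had values of 7.83, 7.63 and 7.86 in EWS-FLI1 embryos and 6.55, 6.84 and 7.36 in control embryos. The controls were widely spread, with control replicate 3 nearest to the EWS-FLI1 arrays. The difference was 0.86 (SE 0.19, limma adjusted p = 0.0188). It lost the call without EWS-FLI1 replicate 1 (limma adjusted p = 0.0843) or replicate 3 (limma adjusted p = 0.084).

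The gene rab20, linked in mammals to phagosomes and endosomes, had values of 6.11, 5.75 and 6.0 in EWS-FLI1 embryos and 4.75, 5.41 and 5.14 in control embryos. The lowest EWS-FLI1 array was above the highest control array, and all values were above background. The difference was 0.85 (SE 0.17, limma adjusted p = 0.0126), and the call was lost without EWS-FLI1 replicate 1 (limma adjusted p = 0.0674) or replicate 3 (limma adjusted p = 0.0587).

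Of the 2 probe sets for rab36, a Golgi and late endosome Rab, rab36 (2) had values of 2.84, 3.03 and 2.96 in EWS-FLI1 embryos and 3.39, 3.43 and 3.75 in control embryos. The EWS-FLI1 arrays were all lower, yet all values lay within background. The difference was -0.58 (SE 0.12, limma adjusted p = 0.0132), lost without EWS-FLI1 replicate 1 (limma adjusted p = 0.0699) or replicate 3 (limma adjusted p = 0.0548). The other rab36 probe set, above background, averaged 4.64 ± 0.16 in EWS-FLI1 and 4.94 ± 0.13 in control embryos (SD, n = 3 each) and had no call (-0.30, limma adjusted p = 0.128).

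**Figure D4:**
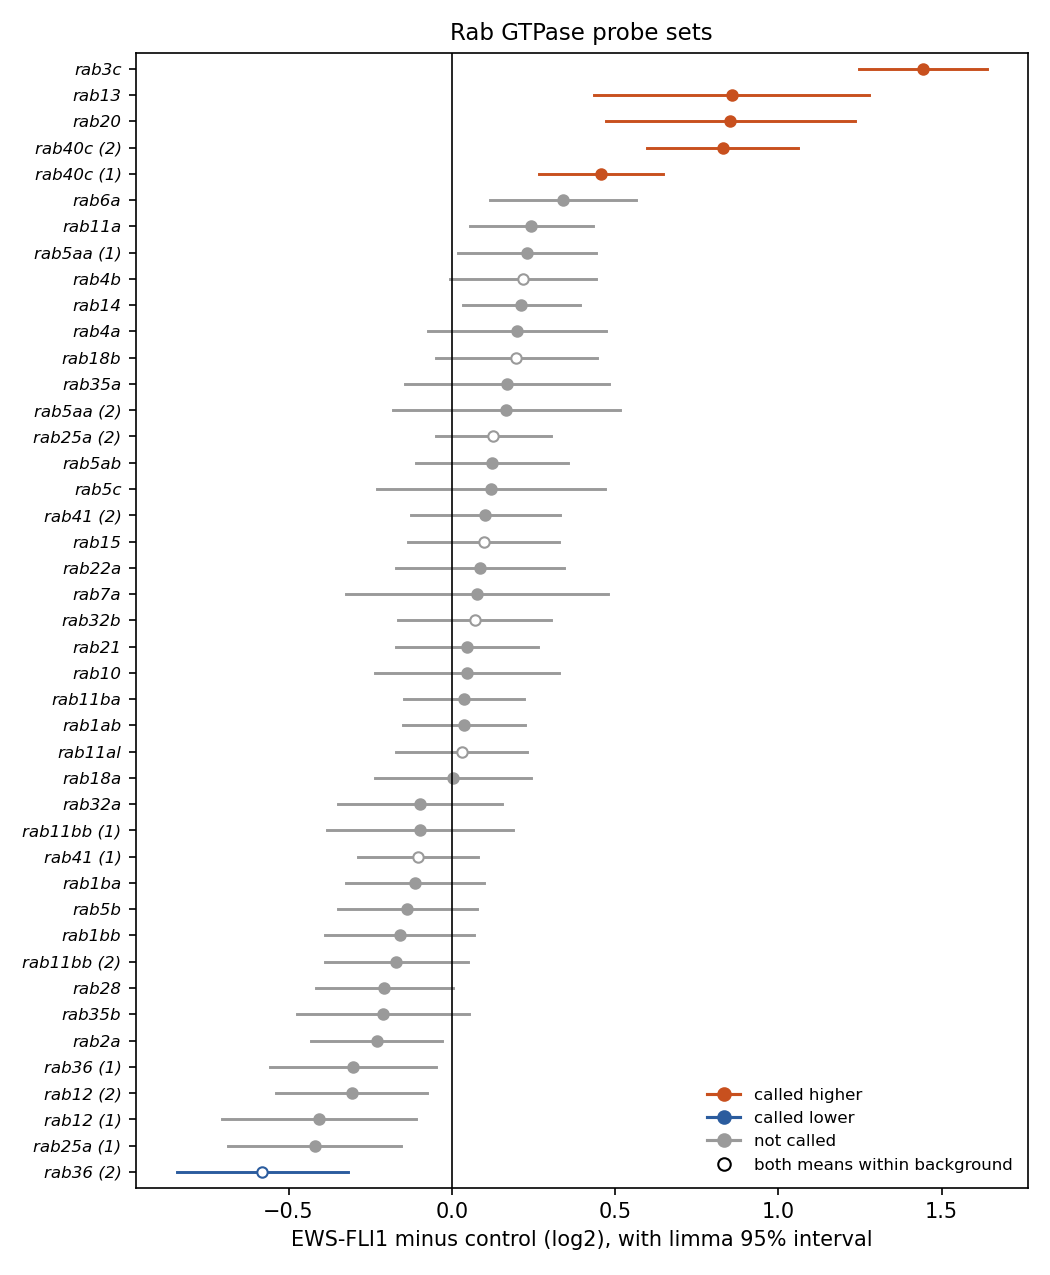
EWS-FLI1 minus control difference (log2, horizontal axis) with its unadjusted limma 95% interval for each of 43 Rab GTPase probe sets. Open points had both means within background, and numbers in brackets tell apart probe sets of a gene. The point for rab3c (1.44) is rightmost and that for rab36 (2) (-0.58) leftmost, and most grey intervals cross 0.

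Just outside the threshold, rab25a, a Rab11 relative of epithelia, had 1 probe set with values averaging 5.04 ± 0.13 in EWS-FLI1 and 5.46 ± 0.18 in control embryos (SD, n = 3 each), a difference of -0.42 (limma adjusted p = 0.0506). Without control replicate 3 it was called lower (limma adjusted p = 0.0134). Without any other single array it had no call, with limma adjusted p of up to 0.194. Its other probe set was within background and differed by 0.13. Of 10 measured genes of the enveloping layer, the surface epithelium of the embryo, 0 were called higher and 3 lower (ppl, anxa1c and evpla). By probe set 27.3% of this list were called, against 11.8% of all probe sets. The call of evpla was within background in both groups. The bright keratin genes krt4, krt5, krt8 and krt18a.1 had no call, with differences of -0.27 to -0.05. The mean level of the list was 7.70 to 7.84 in EWS-FLI1 and 7.87 to 7.97 in control embryos. The part of this list in the values of rab25a and rab13 was not tested. The Golgi Rab gene rab6a differed by 0.34 (limma adjusted p = 0.0602), and the 2 probe sets for rab12, which acts between endosomes and lysosomes, by -0.41 and -0.31 (limma adjusted p = 0.0836 and 0.0931).

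The Rabs of general traffic had no call. They included the early endosome genes rab5aa (0.23 and 0.17), rab5ab (0.12), rab5b (-0.14) and rab5c (0.12), the late endosome gene rab7a (0.08) and the recycling endosome genes rab11a (0.24) and rab11ba (0.04). The genes rab1ab (0.04) and rab1ba (-0.11), which act between the endoplasmic reticulum and the Golgi, and rab2a (-0.23) had no call either. Among the members 9 pairs of names ending in a and b were measured. Some are zebrafish duplicates and others, such as rab4a and rab4b, are separate genes in mammals too. The pairs had 20 probe sets with differences of -0.21 to 0.24 and 0 calls, against 11.8% of all probe sets called. In 4 of these pairs at least 1 probe set was within background in both groups, as for rab32b beside rab32a.

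The Arf and COPI genes run retrieval from the Golgi. The only Arf gene measured by the rule, arf5, differed by -0.05 (limma adjusted p = 0.817). The COPI coat held 12 probe sets for 7 genes. Of these probe sets 2 were called lower and 0 higher (16.7% called, against 11.8% of all probe sets), and the 10 others differed by -0.24 to 0.29. All 12 had at least 1 group mean above background.

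The gene copz2 encodes a form of the zeta subunit. It had values of 4.46, 4.07 and 4.28 in EWS-FLI1 embryos and 5.04, 5.22 and 4.99 in control embryos. The groups were well apart, with the EWS-FLI1 arrays around the background reference. The difference was -0.81 (SE 0.12, limma adjusted p = 0.00325). The paralogue copz1 differed by 0.02 (limma adjusted p = 0.942).

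A single probe set for copb2, which encodes the beta' subunit, was called lower. At this probe set, copb2 (3), the values were 3.94, 3.66 and 4.31 in EWS-FLI1 embryos and 6.64, 4.40 and 6.49 in control embryos. Control replicate 2 lay beside the EWS-FLI1 arrays and well under the other controls, and the EWS-FLI1 mean of 3.97 was within background. The difference was -1.87 (SE 0.52, limma adjusted p = 0.0495). Without control replicate 2 it was -2.60 (limma adjusted p = 5.26e-05), and without any other single array the call was lost, with limma adjusted p of up to 0.167. The gene's 2 other probe sets, both above background, differed by 0.29 (limma adjusted p = 0.0739) and 0.06 (limma adjusted p = 0.74), and neither was called.

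The remaining coat genes had no call: copa (-0.24 and -0.16), copb1 (-0.06), cope (0.17) and copg2 (-0.14, -0.06 and 0.21), which encode the alpha, beta, epsilon and gamma subunits.

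**Figure D5:**
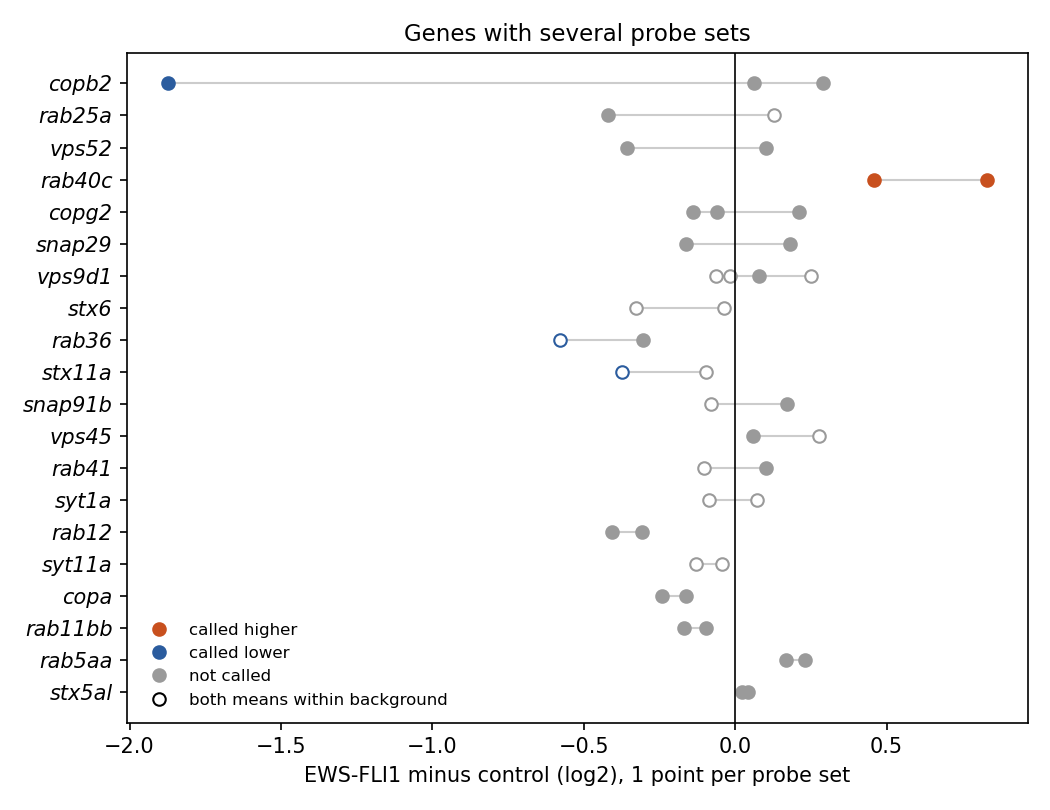
EWS-FLI1 minus control difference (log2, horizontal axis) of each probe set of the 20 member genes with several, ordered by the span between them. Open points had both means within background, and colours mark calls. The widest span is that of copb2, from -1.87 to 0.29, and only rab40c has every probe set called.

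In all 20 member genes had several probe sets, 44 together. For 16 none was called, for rab40c all were, and for copb2, rab36 and stx11a some were. The span between probe sets of a gene had a median of 0.26, was 2.16 for copb2, and was under 0.5 for 18 of the 20 genes. All probe sets had the same sign in 11 of the 20 genes.

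No Vps probe set was called over all 6 arrays, against 11.8% of all probe sets. The 25 Vps probe sets for 20 genes had a median difference of 0.00 and lay between -0.36 and 0.28, with 12 above 0 and 13 below. For 21 of the 25 the unadjusted 95% interval lay within 0.5 of 0 on either side, and 7 were within background in both groups. The ESCRT genes, which sort cargo into multivesicular bodies, were vps28 (-0.02), vps36 (0.22), vps37a (-0.20) and the ATPase gene vps4b (-0.09). The retromer genes, which return receptors from endosomes, were vps26a (-0.11), vps26b (0.24), vps26bl (0.03), vps29 (-0.19) and vps35 (0.09).

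The genes of HOPS and CORVET, the tethers of lysosomes and early endosomes, were vps8, vps16, vps18, vps33a, vps39 and vps41, with differences of -0.14 to 0.11. The GARP tether genes vps51, vps52 and vps53 had differences of -0.36 to 0.10. The lowest was that of a vps52 probe set (limma adjusted p = 0.252), which was called lower without control replicate 2 (-0.56, limma adjusted p = 0.0151). Without any other single array it had no call, with limma adjusted p of up to 0.549. The other vps52 probe set differed by 0.10. Among the others, the Sec1/Munc18 gene vps45 differed by 0.06 and 0.28, and the 4 probe sets for vps9d1 by -0.06 to 0.25.

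The nearest measured genes on either side in the RefSeq gene order were read for the 5 members with differences of at least 1. Of these 10 genes 4 are adjacent to the member, and 1 was called. It was the kinase gene plk2b, adjacent to rab3c, which rose. It averaged 4.67 ± 0.11 in EWS-FLI1 and 3.55 ± 0.13 in control embryos (SD, n = 3 each), a difference of 1.12 (SE 0.10, limma adjusted p = 0.000323), with the control mean within background. On the other side of rab3c the nearest measured gene, elovl7a, had no call (-0.38, limma adjusted p = 0.102). The genes vamp5 and vamp8 are neighbours, and vamp8 was not called. The neighbour of unc13d, unk, was within background in both groups and differed by 0.13 (limma adjusted p = 0.569). Over the 9 genes without a call differences were -0.38 to 0.19. They include spon1a and si:ch73-103b9.2, the nearest measured but not adjacent to syt9a, and si:ch211-119o8.6 and spsb4a by copb2. The others include cox10 near unc13d and tncb near vamp5. Like unk, the genes spon1a, si:ch73-103b9.2, si:ch211-119o8.6 and tncb were within background in both groups and have no measured level.

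Trafficking genes with other names were read from lists of 135 measured genes with 161 probe sets. Of these probe sets 12 were called higher and 2 lower (8.70%, against 11.8% of all probe sets), with a median difference of 0.01. The COPII coat, which buds vesicles from the endoplasmic reticulum, had 0 calls among 10 genes, and the exocyst, which tethers secretory vesicles at the plasma membrane, had 0 among 6. Among 18 genes of Rab regulators, dennd2b and rin3 rose. Human DENND2B is an exchange factor for RAB13, and the zebrafish gene had 2 probe sets. At the called probe set with the smaller difference dennd2b had values of 5.49, 5.35 and 5.37 in EWS-FLI1 embryos and 4.46, 4.58 and 4.71 in control embryos, a difference of 0.82 (limma adjusted p = 0.00115). Its other probe set differed by 0.94 (limma adjusted p = 0.00666), and in neither did the groups overlap. The call of rin3 (0.48, limma adjusted p = 0.0132) was within background in both groups.

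Among 18 genes of Golgi tethers, trappc8 (1.26, limma adjusted p = 0.00107) and trappc11 (0.47, limma adjusted p = 0.0104) rose, which encode subunits of the TRAPPIII complex, and cog4 of the COG complex fell (-0.45, limma adjusted p = 0.0167). The values of trappc8 were 7.41, 7.25 and 7.25 in EWS-FLI1 embryos and 5.99, 5.77 and 6.36 in control embryos, without overlap. Among 15 COPI partners and Arf-like genes, arl8bb, which encodes a lysosomal Arf-like GTPase, rose by 1.06 (limma adjusted p = 0.0111).

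In the list of 14 other SNARE and recycling genes the only call was that of vapb, which encodes an endoplasmic reticulum contact site protein and not a SNARE. Its values were 6.78, 6.75 and 6.45 in EWS-FLI1 embryos and 8.03, 7.94 and 8.27 in control embryos, a difference of -1.42 (SE 0.12, limma adjusted p = 0.000262). Of 27 clathrin and adaptor genes, epn1a (0.42, limma adjusted p = 0.00962) and 1 of 2 probe sets for ap3b1a (0.30, limma adjusted p = 0.0424, within background in both groups) rose. Of 28 ESCRT and endosome genes, snx27b rose by 0.73 (limma adjusted p = 0.002), and 1 probe set each for snx12 (0.44, limma adjusted p = 0.00971), snx2 (0.38, limma adjusted p = 0.0472) and washc3 (0.34, limma adjusted p = 0.0418) rose as well. The other 2 probe sets for snx12 had no call, with differences of 0.04 and -0.26.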

How the data were processed

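The authors deposited log2 values for each probe set on each array. The submitters' processing notes list RMA, affy and R 2.2.0. The log base was inferred from the range, 1.58 to 13.46. RMA corrects background and quantile-normalizes, so differences are relative to each array's distribution and those of dim probe sets are compressed. The table lists 15617 probe sets, of which 115 are manufacturer controls and were dropped. Of the 15502 tested, 10795 had 1 gene in the platform annotation, 135 had several and 4572 were unlisted. Symbols were updated through a RefSeq table of assembly GRCz12tu, which matched 10711 probe sets and all 120 members, and which also gave gene order. No coordinates or sequences were used here.

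The test was limma's (version 3.58.1, R 4.3.3, lmFit and eBayes with 2 group means, two-sided), with Benjamini-Hochberg adjustment over 15502 probe sets. Precision is set by the 3 arrays per group. The background reference was the 95th percentile of all values of 44 control probe sets. Bounds in fold set the EWS-FLI1 mean against it. Tested on simulated data with 15502 probe sets and 200 changes, the fit recovered 62.7% of changes of 0.5 and 100% of changes of 1 and of 2 on the log2 scale, with 12 of 187 calls false. The simulated noise was normal, with the same SD in both groups, and the changes were fewer than the 1835 calls in the data. These rates therefore need not hold for the deposited data.

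The members and all lists were chosen with earlier results of these data known. Named were all genes with a call and their other probe sets, in each subfamily the not-called member with the largest difference and the brightest member, partners of unc13d, neuronal exocytosis genes and duplicate pairs. Members just outside the threshold and others given by value were chosen after their values were seen. The alternatives tried were other scalings and priors, a replicate block, array weights, a minimum change of 0.25 (treat), a threshold of 0.01, a fit without dim probe sets, a fit on the brightest probe set of each gene, and fits without each array. Figures used matplotlib 3.10.9 (Python 3.11.15).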

Additional observations from a re-analysis of the deposited data

How the results depend on the processing

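Of the 13 called member probe sets, 6 stayed called in every setting that gave them a value (unc13d, vamp5, syt9a, rab3c, copz2 and rab40c (2)) and 7 lost the call in some. The members called higher, 8 as reported, numbered 5 with a minimum change of 0.25. The members called lower, 5 as reported, numbered 3 with the replicate block, 8 with array weights, 1 with the minimum change and 1 at the stricter threshold of 0.01. Leaving out each array gave 1 to 8 members called lower, with 1, 2 and 1 without EWS-FLI1 replicates 1, 2 and 3, 2 without control replicate 1 and 8 without control replicate 2. Over all probe sets, 834 called higher became 326 with the minimum change, 504 with 1 probe set per gene, 415 at the stricter threshold and 450 to 1023 without single arrays. The 1001 called lower became 318, 628, 411 and 433 to 1286 in the same settings. Same-numbered arrays did not deviate together (correlations of -0.08, -0.10 and -0.08). With 3 arrays a group this cannot decide whether the numbers pair the arrays, and the labels do not say what the numbers mark. The replicate block gave 705 higher and 871 lower over all probe sets and 8 higher among members. It took the call from stx3b (limma adjusted p = 0.0504) and stx11a (limma adjusted p = 0.0557). For copb2 (3) the limma adjusted p was 0.0509 with quantile normalization repeated and 0.117 with a robust prior. Of the 33 named members without a call, the sign changed without single arrays for 4: snap23.1 (-0.16 to 0.09), arf5 (-0.12 to 0.003), vamp1a (-0.12 to 0.02) and a vps9d1 probe set (-0.14 to 0.29). Among all members without a call, 6 gained one in some setting, rab6a and stx8 higher and stxbp2, rab25a, stx6 and vps52 lower. Causes were not tested. With 3 arrays a group, changes near 0.5 can be missed, and transcripts within background have no measured level.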
